A study of Homo sapiens with 16 samples.

Results

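The mRNA levels of 53 genes that act in the G2 phase and in mitosis were followed in U2OS cells, a human osteosarcoma cell line, under 5-fluorouracil (5-FU) and under its vehicle. 5-FU is a pyrimidine analog whose products inhibit thymidylate synthase and enter RNA. The 53 genes were taken from a named list for these phases, from which some gene families were left out, and make up 53 of the 28685 genes that the count tables of both experiments share. All 53 were found under the same symbol in both experiments, and all passed the filter on low counts. The lowest count of any of them in any library was 317 reads, for CDC25C. The groups were W329G cells under 5-FU, W329G cells under DMSO, WT cells under 5-FU and WT cells under DMSO, with 4 libraries each. W329G cells carry the tryptophan-to-glycine change W329G in MDM2, the ubiquitin ligase that holds p53 low, introduced by CRISPR/Cas9 editing. WT cells are the matched cells with wild-type MDM2. 5-FU was given at 50 µM and both treatments lasted 24 h. The design compared the genotypes under each treatment and thereby addressed how the MDM2 mutation bears on p53 regulation.

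Each genotype was present as 2 numbered lines (cells 1 and cells 2), and the whole design was run in 2 experiments, each sequenced by another vendor. In experiment 1, cells 1 gave replicate 1 and cells 2 gave replicate 2. In experiment 2 they gave replicates 3 and 4. Values per library are given in that order throughout, in CPM (counts scaled by library size, with TMM factors). The labels do not say whether a line is a single clone or how many MDM2 alleles carry the edit, and 2 lines per genotype limit every comparison between genotypes. The libraries held between 24715999 and 56877328 counts, and mitochondrially encoded genes took between 7.14% and 31.84% of the joined counts. The 53 genes together took between 0.411% and 1.119% of them. Of the markers of the labelled cell type, COL1A1 and SPARC were abundant in every library, with lowest values of 2335 and 1478 CPM, and RUNX2 was at 21.6 CPM or more, while COL1A2 and ALPL stayed low, with highest values of 9.02 and 8.17 CPM. Epithelial markers were present (KRT8 between 31.3 and 406 CPM, EPCAM between 3.49 and 19.8 CPM), and the blood markers CD3E and HBB were each at 0 in 14 of the 16 libraries.

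Entry into mitosis is driven by the kinase CDK1, and chromosomes are then condensed, attached to the spindle through kinetochores, checked for attachment, and pulled apart before the cell divides. The genes for these steps are transcribed mainly in G2 and mitosis. In resting or arrested cells the DREAM complex, built from the MuvB core, E2F4 or E2F5 and the pocket proteins p107 or p130, keeps them low. In dividing cells the same core joins B-Myb and FOXM1 to activate them. MuvB binds a promoter element called the cell cycle genes homology region (CHR), often beside CCAAT boxes bound by NF-Y. p53 lowers many of these genes through its target CDKN1A (p21), which favours DREAM formation. In bulk RNA, fewer cells in G2 or mitosis and less of these mRNAs per cell cannot be told apart.

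Promoter sequence was examined because the genes move together and the CHR is their known shared element. RefSeq promoter windows (build GRCh38.p14, 250 bases upstream to 50 bases downstream of an annotated start) were at hand for 46 of the 53 genes. They were not at hand for AURKA, BIRC5, FOXM1, RACGAP1, TPX2, TTK and UBE2C. Both strands were searched. The CHR letters TTTGAA were in the windows of 36 of the 46 genes, or 78.3%, against 15.8% of the 15843 protein-coding genes with a window. Between 100 bases upstream and 50 bases downstream of the start, the shares were 71.7% of the 46 genes and 7.01% of all genes. The variant TTCGAA was in 4 of the 46 windows (BUB1, CDC25B, KIF22 and NDC80), or 8.7% against 2.11% of all genes. CCAAT was in 35, or 76.1% against 42.1%. The E2F letters TTCCCGC and TTGGCGC were in 10.9% and 13.0% of the 46 genes, against 10.5% and 5.02% of all genes. No match is a shown binding site.

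Promoters of 4 of the genes are shown for what their mRNAs did. In the main fit, without pairing, HMMR and KIF20A were the genes called lower under 5-FU in W329G cells. ZWINT was the gene called there in the test of the difference between the responses, and CDK1 is the central mitotic kinase. With 5-FU and DMSO of the same line and experiment paired, 30 genes were called lower in W329G cells (5.79% of all genes tested). The difference was then called higher for 8 genes (3.6% of all genes tested). Each sequence is the 250 bases before a RefSeq start, 5′ to 3′ on the gene's own strand. These starts lie inside the gene spans of experiment 1, and the HMMR and KIF20A windows fall wholly within those spans. Capitals mark the CHR letters, CCAAT and the E2F letters TTGGCGC, read on either strand. The HMMR window (chr5:163460382-163460631, plus strand) held 2 adjoining TTTGAA and 5 CCAAT matches, of which 2 overlap. The KIF20A window (chr5:138178862-138179111, plus strand) held 2 CCAAT matches and no TTTGAA.
The CDK1 window (chr10:60778228-60778477, plus strand) held 2 TTTGAA, 2 CCAAT and 1 TTGGCGC match. The ZWINT window (chr10:56361260-56361509, minus strand) held 1 TTTGAA, 2 CCAAT and 1 TTGGCGC match.
HMMR: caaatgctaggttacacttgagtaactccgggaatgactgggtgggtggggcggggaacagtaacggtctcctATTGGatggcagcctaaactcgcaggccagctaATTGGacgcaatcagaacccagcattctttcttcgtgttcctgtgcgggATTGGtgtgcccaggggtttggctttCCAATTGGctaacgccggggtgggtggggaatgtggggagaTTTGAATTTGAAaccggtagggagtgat
KIF20A: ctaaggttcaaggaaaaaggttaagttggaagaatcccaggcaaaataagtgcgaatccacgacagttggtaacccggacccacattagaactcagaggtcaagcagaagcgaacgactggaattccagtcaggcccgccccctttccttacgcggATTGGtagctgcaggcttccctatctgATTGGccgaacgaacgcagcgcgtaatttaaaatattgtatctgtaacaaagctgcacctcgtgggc
CDK1: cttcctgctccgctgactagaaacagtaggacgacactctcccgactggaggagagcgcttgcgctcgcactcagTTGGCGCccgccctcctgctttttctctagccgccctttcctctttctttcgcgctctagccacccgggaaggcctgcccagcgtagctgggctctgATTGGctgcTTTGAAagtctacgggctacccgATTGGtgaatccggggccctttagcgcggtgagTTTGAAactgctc
ZWINT: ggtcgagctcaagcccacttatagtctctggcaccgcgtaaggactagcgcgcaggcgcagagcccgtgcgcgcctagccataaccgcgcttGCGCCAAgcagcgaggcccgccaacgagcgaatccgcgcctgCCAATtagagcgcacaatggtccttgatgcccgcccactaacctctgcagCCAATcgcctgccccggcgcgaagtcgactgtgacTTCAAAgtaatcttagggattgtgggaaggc

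In the 36 genes with TTTGAA, the first base of the match nearest to a start lay at a median of 21 bases upstream. In 22 of the 36 it lay between 60 bases and 1 base upstream.

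**Figure D1:**
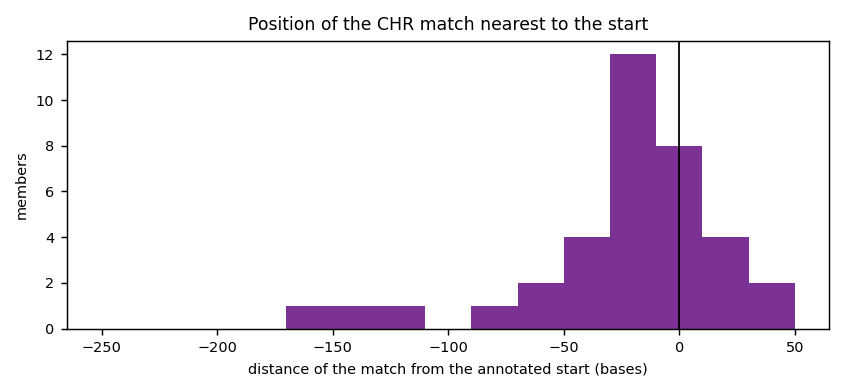
Histogram of the distance in bases from the annotated start (x axis, negative is upstream) of the TTTGAA match nearest to it, as the number of genes (y axis) among the 36 genes with a match. Most matches sit just upstream of the start, around the median of -21, and the range runs from -151 to 40.

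Levels can be compared between genes only per length, which the files of experiment 1 allow. Per kilobase of exon, WT cells under DMSO had the highest values for CKS2 (210.1 CPM per kb), CDC20 (136 CPM per kb) and TOP2A (85.3 CPM per kb). The lowest were KIF14 (5.80 CPM per kb), ASPM (6.36 CPM per kb) and ESPL1 (7.02 CPM per kb).

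The 5-FU response was read first within each genotype. In W329G cells 51 of the 53 genes had a lower level under 5-FU than under DMSO in the fit, with a median log2 fold change of -0.41 and a range of -0.79 (CDC25C) to 0.15 (FOXM1). In WT cells all 53 were lower, with a median of -0.58 and a range of -1.22 (SPC25) to -0.09 (CDC25B and CKS2). The medians over all 16430 genes tested were 0.02 in W329G cells and 0.01 in WT cells. In edgeR's quasi-likelihood test, where a gene was called at a Benjamini-Hochberg adjusted p under 0.05 over all genes tested, 2 of the 53 fell in W329G cells, HMMR and KIF20A, and none rose, where 0.59% of all genes tested were called lower and 0.195% higher. In WT cells 27 of the 53 fell and none rose, where 5.22% of all genes tested were called lower and 3.56% higher. The DESeq2 test called 9 genes lower in W329G cells and 33 in WT cells, where it called 2% and 6.88% of all genes lower. At an unadjusted p under 0.05, 33 of the 53 passed in W329G cells and 43 in WT cells, where 13.1% and 22.2% of all genes passed. With 5-FU and DMSO of the same line and experiment paired as blocks, 30 genes fell in W329G cells and 44 in WT cells, where 5.79% and 13.1% of all genes were called lower. Under the block 25 genes were called in both genotypes, 19 in WT cells alone, 5 in W329G cells alone (AURKA, CDCA8, PTTG1, KIF20A and CKAP2) and 4 in neither (CDC25B, CKS2, CDC20 and KIF18A). Being called in one genotype alone does not show a difference between them, which is tested separately.
Pairs were left out only in the fit without the block. There the calls in W329G cells depended on every pair: without replicate 1, 2, 3 or 4, none of the 53 was called, and 0.066% to 0.133% of all genes were. In WT cells 17, 14, 29 and 15 were called without replicate 1, 2, 3 and 4, where 4.53%, 3.99%, 7.12% and 3.99% of all genes were called in either direction, and 14 of the 53 were called each time. Within experiment 1 alone the medians were -0.31 in W329G cells and -0.60 in WT cells, with 0 and 3 of the 53 called by edgeR (0% and 1.28% of all genes), and 9 and 32 at an unadjusted p under 0.05 (6.92% and 13.1% of all genes). Within experiment 2 alone they were -0.50 and -0.58, with none called in either genotype, and 19 and 26 at an unadjusted p under 0.05 (5.5% and 11% of all genes).

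**Figure D2:**
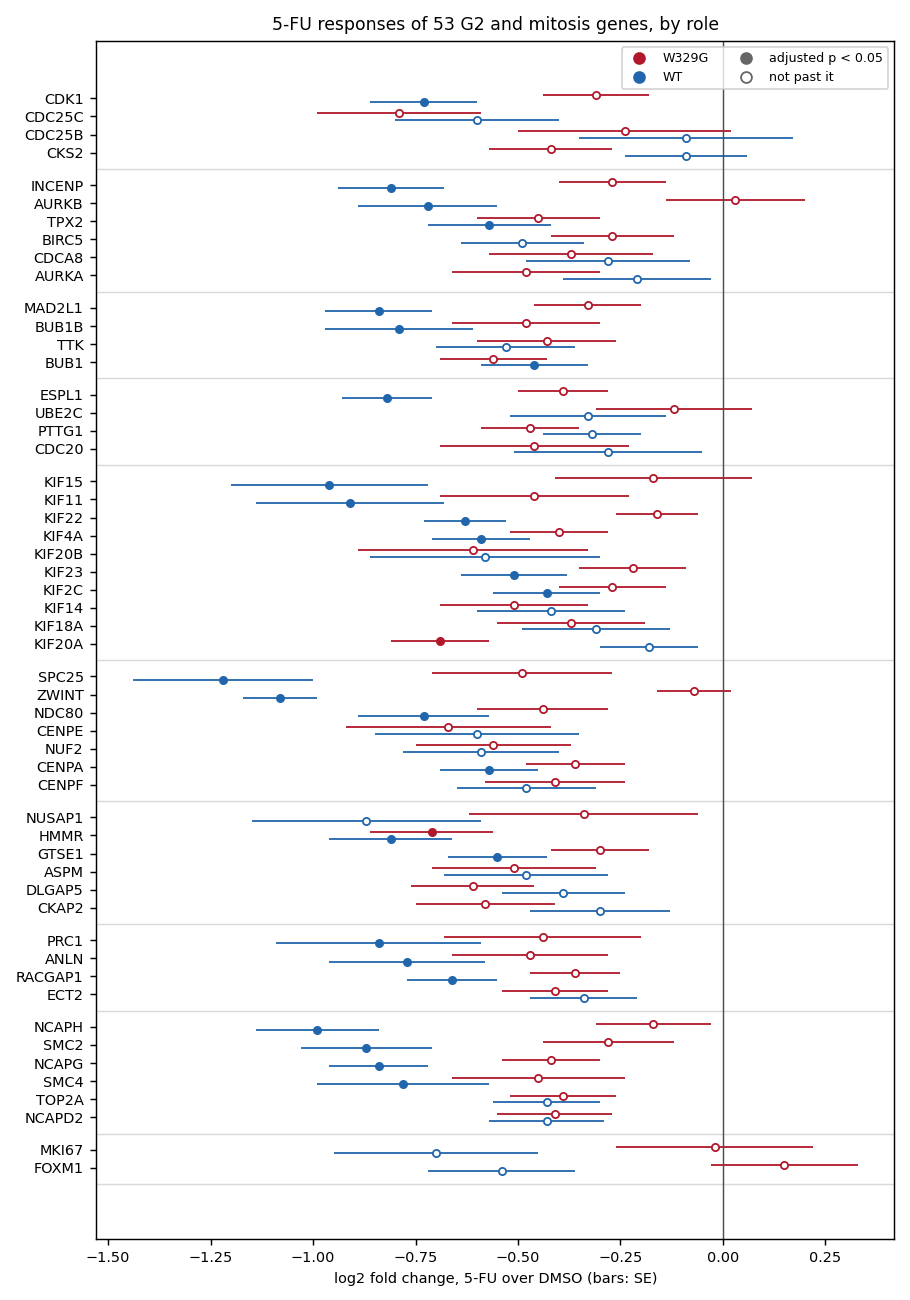
Log2 fold change of 5-FU over DMSO (x axis, bars are standard errors) of the 53 genes, in blocks by role and ordered within a block by the WT response. W329G is red and WT is blue, and filled circles passed an adjusted p of 0.05. All 53 WT values lie below 0, 27 of them filled, while 51 of the W329G values lie below 0 and 2 are filled.

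The change was also read in each pair of libraries of the same line and experiment. The mean log2 change over the 53 genes was -0.38, -0.221, -0.416 and -0.503 in the 4 W329G pairs, and -0.524, -0.744, -0.34 and -0.753 in the 4 WT pairs. The means over pairs were -0.38 ± 0.118 in W329G cells and -0.59 ± 0.197 in WT cells (SD, n = 4 pairs each). The ranges of the genotypes overlapped, since WT replicate 3 changed less than W329G replicates 1, 3 and 4. Of the 53 genes, 51, 45, 52 and 49 were lower in the 4 W329G pairs, and 51, 53, 47 and 51 in the 4 WT pairs. Lower in all 4 pairs were 41 genes in W329G cells (16.9% of all genes tested) and 45 in WT cells (21.2% of all genes tested). Every 5-FU library lay below every DMSO library for 17 genes in W329G cells (2.63% of all genes tested) and for 21 in WT cells (4.7% of all genes tested).

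**Figure D3:**
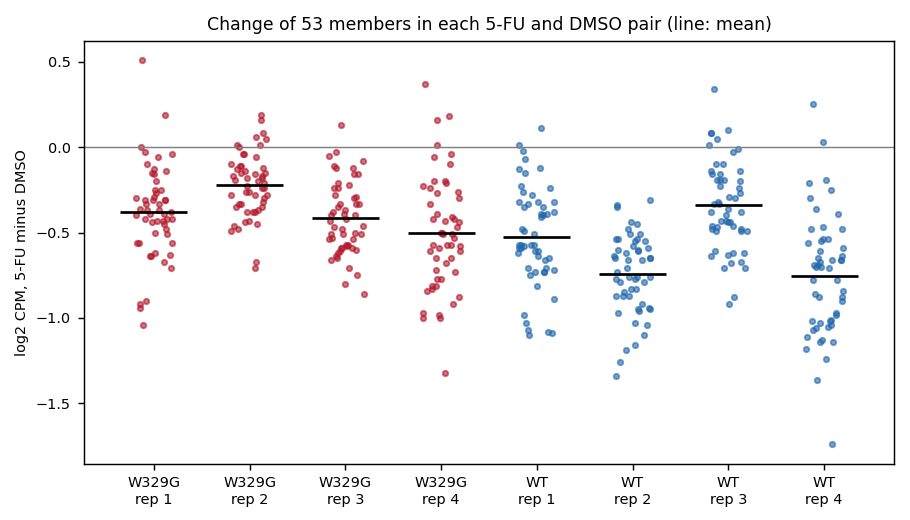
Log2 CPM of 5-FU minus DMSO (y axis) of the 53 genes in each pair of the same line and experiment (x axis), 1 point a gene and a line at the mean. The means run from -0.503 to -0.221 in W329G pairs and from -0.753 to -0.34 in WT pairs, with points spread around each of them.

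The group of CDK1, its activating phosphatases and its binding protein had none of 4 genes called in W329G cells and 1 in WT cells (1 and 2 with the replicate block). CDK1 had 135, 139.5, 116 and 128 CPM in W329G cells under 5-FU, against 164, 125, 174 and 185 CPM under DMSO. WT cells had 79.1, 70.0, 86.0 and 80.4 CPM under 5-FU, against 123, 119, 120.3 and 162 CPM under DMSO. Every WT 5-FU library lay below every other library of the design, while the W329G treatments overlapped through DMSO replicate 2. The log2 fold change of CDK1, given with its standard error (SE) as for all genes here, was -0.31 ± 0.13 in W329G cells (adjusted p = 0.303) and -0.73 ± 0.13 in WT cells (adjusted p = 0.00202, edgeR). CDC25B, which opens CDK1 activation by removing inhibitory phosphates, had 90.5, 128, 173 and 90.1 CPM in W329G cells under 5-FU, against 118, 178, 186 and 80.9 CPM under DMSO. In WT cells CDC25B had 109.9, 128, 186 and 159 CPM under 5-FU, against 144, 162, 176 and 134 CPM under DMSO. Treatments overlapped in both genotypes, and the 5-FU response of CDC25B was called in neither, with or without the block. CKS2, a small CDK-binding protein, had 83.8, 104, 49.1 and 56.5 CPM in W329G cells under 5-FU, against 137, 113, 76.7 and 65.2 CPM under DMSO. In WT cells CKS2 had 131, 86.4, 78.5 and 71.3 CPM under 5-FU, against 121, 137, 62.0 and 81.5 CPM under DMSO. CKS2 levels were lower in experiment 2 than in experiment 1 in every group, and edgeR called neither response of CKS2, with or without the block. CDC25C, the phosphatase that completes CDK1 activation, overlaps FAM53C on the other strand, which had 302% of its counts. Its log2 fold change was -0.79 ± 0.20 in W329G cells and -0.60 ± 0.20 in WT cells, called in both under the block alone (block adjusted p = 0.000554 and 0.000774).

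Of the 6 genes of the Aurora kinases and the chromosomal passenger complex, which corrects wrong spindle attachments, none fell in W329G cells and 3 fell in WT cells (AURKB, INCENP and TPX2). The block called 3 in W329G cells (AURKA, CDCA8 and TPX2) and 4 in WT cells. AURKB, the kinase of the complex, had 45.6, 59.8, 55.3 and 44.1 CPM in W329G cells under 5-FU, against 48.7, 56.7, 56.5 and 38.9 CPM under DMSO. WT cells had 42.6, 24.4, 35.4 and 29.3 CPM of AURKB under 5-FU, against 64.1, 55.8, 49.9 and 47.6 CPM under DMSO. The W329G treatments overlapped and the WT treatments did not, with log2 fold changes of 0.03 ± 0.17 in W329G cells (adjusted p = 0.971) and -0.72 ± 0.17 in WT cells (adjusted p = 0.0149, edgeR). INCENP, the scaffold of the complex, had log2 fold changes of -0.27 ± 0.13 in W329G cells and -0.81 ± 0.13 in WT cells (adjusted p = 0.393 and 0.000972). BIRC5 (survivin), another subunit, had 266, 215, 185 and 237 CPM in W329G cells under 5-FU, against 369, 256, 201 and 271 CPM under DMSO. For BIRC5 WT cells had 176, 159.7, 191 and 157 CPM under 5-FU, against 292, 253, 205 and 218 CPM under DMSO. The WT treatments did not overlap, though BIRC5 missed the threshold there (adjusted p = 0.0628) and passed with the block (adjusted p = 0.00465). TPX2, which activates Aurora A on the spindle, had a log2 fold change of -0.57 ± 0.15 in WT cells, and AURKA and the subunit CDCA8 (borealin) had log2 fold changes of -0.48 ± 0.18 and -0.37 ± 0.20 in W329G cells and -0.21 ± 0.18 and -0.28 ± 0.20 in WT cells.

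In the spindle checkpoint, which holds cells in metaphase until every kinetochore is attached, none of 4 genes fell in W329G cells and 3 fell in WT cells (BUB1, BUB1B and MAD2L1). The block called 3 in W329G cells (BUB1, BUB1B and TTK) and all 4 in WT cells. BUB1, a checkpoint kinase, had 109.9, 103, 110.2 and 122 CPM in W329G cells under 5-FU, against 175, 133, 165 and 186 CPM under DMSO. BUB1 in WT cells stood at 112, 78.5, 144 and 122 CPM under 5-FU, against 142, 129.9, 161 and 192 CPM under DMSO. The W329G treatments of BUB1 did not overlap and the WT treatments did, yet the W329G log2 fold change of -0.56 ± 0.13 missed the threshold (adjusted p = 0.0666) and the WT change of -0.46 ± 0.13 passed it (adjusted p = 0.0445). BUB1B (BUBR1), which inhibits the anaphase-promoting complex, had 83.2, 60.7, 78.4 and 117 CPM in W329G cells under 5-FU, against 117, 76.0, 109 and 174 CPM under DMSO. BUB1B in WT cells stood at 32.2, 31.7, 63.9 and 52.2 CPM under 5-FU, against 56.4, 61.0, 88.0 and 102 CPM under DMSO. BUB1B was lower under 5-FU in all 8 pairs, with a log2 fold change of -0.48 ± 0.18 in W329G cells (adjusted p = 0.264) and -0.79 ± 0.18 in WT cells (adjusted p = 0.0135). MAD2L1 (MAD2), the checkpoint protein that captures CDC20, had 99.2, 96.4, 64.5 and 71.6 CPM in W329G cells under 5-FU, against 123, 96.3, 84.4 and 107 CPM under DMSO. MAD2L1 in WT cells stood at 64.3, 53.4, 44.0 and 49.9 CPM under 5-FU, against 101, 104, 70.3 and 101 CPM under DMSO. Only the WT treatments of MAD2L1 were apart, with log2 fold changes of -0.33 ± 0.13 in W329G cells and -0.84 ± 0.13 in WT cells (adjusted p = 0.303 and 0.00102). TTK (MPS1), the kinase at the top of the checkpoint, had log2 fold changes of -0.43 ± 0.17 in W329G cells and -0.53 ± 0.17 in WT cells, and passed under the block alone.

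Of the 4 genes of anaphase entry, none fell in W329G cells, and separase (ESPL1), which cuts cohesin, fell in WT cells. Under the block ESPL1 and PTTG1 were called in W329G cells, and ESPL1 and UBE2C in WT cells. ESPL1 had 50.0, 48.6, 53.6 and 63.7 CPM in W329G cells under 5-FU, against 65.4, 61.8, 81.7 and 74.4 CPM under DMSO. ESPL1 in WT cells stood at 35.1, 28.6, 45.4 and 39.2 CPM under 5-FU, against 69.2, 55.5, 72.4 and 63.2 CPM under DMSO. In WT cells the treatments were apart, and W329G replicate 4 alone under 5-FU made them overlap in W329G cells, with log2 fold changes of -0.39 ± 0.11 in W329G cells (adjusted p = 0.135) and -0.82 ± 0.11 in WT cells (adjusted p = 0.000324). CDC20, the activator of the anaphase-promoting complex, had 168, 207, 175 and 143 CPM in W329G cells under 5-FU, against 314, 338, 204 and 142 CPM under DMSO. CDC20 in WT cells stood at 173, 222, 196 and 122 CPM under 5-FU, against 218, 337, 215 and 119 CPM under DMSO. CDC20 was lower under 5-FU in both experiment 1 pairs of each genotype, while the treatments were close in replicate 4 of both. Neither response of CDC20 was called by edgeR, with or without the block. UBE2C, the ubiquitin-conjugating enzyme of this complex, and PTTG1 (securin), the inhibitor of separase, were not called by edgeR without the block.

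Of the 10 kinesins, motor proteins of the spindle, KIF20A fell in W329G cells, and KIF2C, KIF4A, KIF11, KIF15, KIF22 and KIF23 fell in WT cells. With the block 5 were called in W329G cells (KIF20A, KIF4A, KIF11, KIF14 and KIF20B) and 8 in WT cells. KIF20A (MKLP2), which carries the passenger complex to the midzone, is gene ENSG00000112984 at chromosome 5, 138178719 to 138187715 (GRCh38, plus strand). It had 94.8, 114, 117 and 114 CPM in W329G cells under 5-FU, against 194, 153, 168 and 194 CPM under DMSO. KIF20A in WT cells stood at 125, 102, 162 and 151 CPM under 5-FU, against 131, 139.5, 164 and 175 CPM under DMSO. The W329G treatments were clearly apart and the WT treatments overlapped, with log2 fold changes of -0.69 ± 0.12 in W329G cells (adjusted p = 0.017) and -0.18 ± 0.12 in WT cells (adjusted p = 0.427, edgeR). The difference between the responses, -0.51 ± 0.17, did not pass (adjusted p = 0.229, 0.0774 with the block). KIF20A overlaps BRD8 and CDC23 on the other strand, which had 62.4% and 37.1% of its counts, so part of its reads could be theirs if counting ignored strand.

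KIF11 (Eg5), the motor that separates the spindle poles, had 202, 119.6, 154 and 248 CPM in W329G cells under 5-FU, against 255, 156, 213 and 388 CPM under DMSO. KIF11 in WT cells stood at 77.7, 62.6, 117 and 113 CPM under 5-FU, against 144, 134, 164 and 249 CPM under DMSO. The 4 WT 5-FU libraries were the lowest of all 16. KIF15, a motor that helps KIF11 hold the spindle apart, had 46.7, 38.4, 50.2 and 62.3 CPM in W329G cells under 5-FU, against 48.0, 40.0, 59.2 and 78.6 CPM under DMSO. KIF15 in WT cells stood at 23.3, 18.3, 22.1 and 40.4 CPM under 5-FU, against 49.3, 35.6, 34.0 and 82.7 CPM under DMSO. KIF15 had log2 fold changes of -0.17 ± 0.24 in W329G cells and -0.96 ± 0.24 in WT cells (WT adjusted p = 0.0206), where replicate 4 under 5-FU lay within the range under DMSO. KIF22 (Kid), which pushes chromosome arms outward, had 94.3, 104, 123 and 103 CPM in W329G cells under 5-FU, against 114, 119.9, 129.9 and 108 CPM under DMSO. KIF22 in WT cells stood at 76.9, 69.7, 80.1 and 81.5 CPM under 5-FU, against 127, 109, 124 and 118 CPM under DMSO. The WT treatments of KIF22 were apart, with log2 fold changes of -0.16 ± 0.10 in W329G cells and -0.63 ± 0.10 in WT cells (adjusted p = 0.551 and 0.000899). KIF23 (MKLP1), the motor of the central spindle, had 186, 192, 213 and 233 CPM in W329G cells under 5-FU, against 190.3, 184, 267 and 348 CPM under DMSO. KIF23 in WT cells stood at 121, 101, 173 and 151 CPM under 5-FU, against 151, 147, 211 and 275 CPM under DMSO. Experiment 2 was higher than experiment 1 for KIF23, and the log2 fold change was -0.22 ± 0.13 in W329G cells and -0.51 ± 0.13 in WT cells (adjusted p = 0.52 and 0.0245). The microtubule depolymerase KIF2C and the chromosome-bound KIF4A had log2 fold changes of -0.43 ± 0.13 and -0.59 ± 0.12 in WT cells. KIF4A overlaps PDZD11, which had 50.2% of its counts. KIF14 and KIF20B, which act in cytokinesis, and KIF18A, which dampens chromosome movement and overlaps METTL15 at 41.5% of its counts, were not called by edgeR without the block.

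In the centromere and kinetochore group none of 7 genes fell in W329G cells and 4 fell in WT cells (CENPA, NDC80, SPC25 and ZWINT). With the block 4 were called in W329G cells (CENPA, CENPE, NUF2 and NDC80) and all 7 in WT cells. ZWINT, which anchors dynein recruitment at the outer kinetochore, is ENSG00000122952 at chromosome 10, 56357228 to 56361275 (GRCh38, minus strand). ZWINT had 147, 137, 158 and 158 CPM in W329G cells under 5-FU, against 154, 150.1, 164 and 162 CPM under DMSO. ZWINT in WT cells stood at 79.2, 64.8, 92.1 and 79.8 CPM under 5-FU, against 170.2, 156, 174 and 168 CPM under DMSO. The 4 WT 5-FU libraries lay far below the other 12, which all lay between 137 and 174 CPM. The log2 fold change was -0.07 ± 0.09 in W329G cells (adjusted p = 0.815) and -1.08 ± 0.09 in WT cells (adjusted p = 6.22e-06, edgeR). NDC80, the microtubule-binding subunit of the kinetochore complex named after it, had 110.2, 101, 98.9 and 119.5 CPM in W329G cells under 5-FU, against 142, 114, 144 and 192 CPM under DMSO. NDC80 in WT cells stood at 63.2, 50.1, 87.1 and 73.8 CPM under 5-FU, against 103, 94.9, 99.7 and 154 CPM under DMSO. The WT treatments of NDC80 were apart and the W329G treatments overlapped, with log2 fold changes of -0.44 ± 0.16 in W329G cells and -0.73 ± 0.16 in WT cells (adjusted p = 0.228 and 0.0088). SPC25, a subunit of the same complex, had 66.1, 47.2, 36.6 and 51.8 CPM in W329G cells under 5-FU, against 81.9, 60.3, 47.4 and 91.2 CPM under DMSO. SPC25 in WT cells stood at 29.7, 23.6, 25.2 and 21.3 CPM under 5-FU, against 62.3, 59.8, 38.7 and 71.1 CPM under DMSO. SPC25 had a log2 fold change of -0.49 ± 0.22 in W329G cells and of -1.22 ± 0.22 in WT cells (WT adjusted p = 0.00275), the most negative WT response of the 53. CENPF, a large kinetochore protein that peaks in G2, had 323, 259, 259.8 and 319 CPM in W329G cells under 5-FU, against 324, 280.0, 438 and 566 CPM under DMSO. CENPF in WT cells stood at 231, 192, 315 and 319 CPM under 5-FU, against 322, 239, 405 and 518 CPM under DMSO. In W329G cells the lower CENPF levels under 5-FU were seen mainly in experiment 2, and CENPF was not called by edgeR without the block. CENPA, the histone H3 variant of centromeres, had log2 fold changes of -0.36 ± 0.12 in W329G cells and -0.57 ± 0.12 in WT cells, but overlaps SLC35F6 on the same strand, which had 231% of its counts. The kinetochore motor CENPE and the NDC80 partner NUF2 passed under the block alone, in both genotypes.

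Among 6 spindle and microtubule proteins, HMMR fell in both genotypes and GTSE1 in WT cells, while the block called 5 in each genotype. HMMR (RHAMM), which helps to orient the spindle, is ENSG00000072571 at chromosome 5, 163460203 to 163491945 (GRCh38, plus strand). HMMR had 49.1, 52.5, 47.4 and 49.8 CPM in W329G cells under 5-FU, against 76.2, 71.5, 82.7 and 97.6 CPM under DMSO. HMMR in WT cells stood at 45.9, 34.2, 52.7 and 42.4 CPM under 5-FU, against 68.3, 61.6, 70.9 and 109 CPM under DMSO. The treatments were apart in both genotypes, and the 5-FU levels of the genotypes overlapped. The log2 fold change was -0.71 ± 0.15 in W329G cells (adjusted p = 0.0399) and -0.81 ± 0.15 in WT cells (adjusted p = 0.00308, edgeR). NUSAP1, which bundles spindle microtubules, had 170.0, 99.6, 132 and 235 CPM in W329G cells under 5-FU, against 209.9, 102, 156 and 354 CPM under DMSO. NUSAP1 in WT cells stood at 66.0, 49.6, 111 and 91.3 CPM under 5-FU, against 108, 101, 156 and 215 CPM under DMSO. Lines differed widely for NUSAP1, and its WT log2 fold change of -0.87 ± 0.28 missed the threshold (adjusted p = 0.0663) but passed with the block (adjusted p = 0.000226). GTSE1, which steadies spindle microtubules, had log2 fold changes of -0.30 ± 0.12 in W329G cells and -0.55 ± 0.12 in WT cells. DLGAP5 and ASPM, proteins of the spindle and its poles, passed under the block in both genotypes, and CKAP2, a microtubule stabilizer, in W329G cells.

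Of 4 cytokinesis genes none fell in W329G cells and PRC1, ANLN and RACGAP1 fell in WT cells, while the block called all 4 lower in both genotypes. PRC1, which bundles the midzone, had 142, 86.2, 83.5 and 142 CPM in W329G cells under 5-FU, against 203, 108, 102 and 202 CPM under DMSO. PRC1 in WT cells stood at 89.0, 70.1, 108 and 90.7 CPM under 5-FU, against 148, 135, 169 and 188 CPM under DMSO. In W329G cells replicates 1 and 4 were higher than replicates 2 and 3 under both treatments, and PRC1 was lower under 5-FU in every pair, with log2 fold changes of -0.44 ± 0.24 in W329G cells and -0.84 ± 0.25 in WT cells (adjusted p = 0.478 and 0.0449, 0.0133 and 2.86e-05 with the block). ANLN (anillin) and RACGAP1, organizers of the contractile ring, had log2 fold changes of -0.77 ± 0.19 and -0.66 ± 0.11 in WT cells. ECT2, the activator of RhoA in the ring, passed under the block in both genotypes.

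Of 6 genes of chromosome condensation none fell in W329G cells and NCAPH, NCAPG, SMC2 and SMC4 fell in WT cells. The block called NCAPD2, NCAPG and SMC4 in W329G cells and all 6 in WT cells. NCAPH, the condensin I subunit that closes its ring, had 109.8, 101, 104 and 115 CPM in W329G cells under 5-FU, against 123, 116, 121 and 123 CPM under DMSO. NCAPH in WT cells stood at 42.5, 48.7, 78.3 and 50.1 CPM under 5-FU, against 86.7, 109, 128 and 111 CPM under DMSO. Treatments were apart in both genotypes, narrowly in W329G cells, with log2 fold changes of -0.17 ± 0.14 in W329G cells (adjusted p = 0.674) and -0.99 ± 0.15 in WT cells (adjusted p = 0.000473). NCAPD2, another condensin I subunit, is ENSG00000010292 at chromosome 12, 6493356 to 6531955 (GRCh38, plus strand). NCAPD2 had 424, 312, 401 and 470.4 CPM in W329G cells under 5-FU, against 579.7, 498, 503 and 539.9 CPM under DMSO. NCAPD2 in WT cells stood at 264, 204, 297 and 310.4 CPM under 5-FU, against 376, 298, 367 and 406 CPM under DMSO. NCAPD2 was higher in W329G cells than in WT cells under both treatments, every library apart. Under 5-FU this was narrow, with 312 CPM in W329G replicate 2 against 310.4 CPM in WT replicate 4. Its log2 fold changes were -0.41 ± 0.14 in W329G cells and -0.43 ± 0.14 in WT cells. NCAPD2 overlaps MRPL51 on the other strand, which had 45.5% of its counts. NCAPG, the third regulatory subunit, had 69.6, 64.7, 74.0 and 85.3 CPM in W329G cells under 5-FU, against 89.3, 75.8, 105 and 127 CPM under DMSO. NCAPG in WT cells stood at 35.5, 31.6, 49.8 and 45.7 CPM under 5-FU, against 59.1, 57.9, 75.7 and 98.8 CPM under DMSO. NCAPG had log2 fold changes of -0.42 ± 0.12 in W329G cells and -0.84 ± 0.12 in WT cells (adjusted p = 0.117 and 0.000346), with WT treatments apart. SMC2, an ATPase arm of condensin, had 165, 119, 131 and 173 CPM in W329G cells under 5-FU, against 181, 146, 161 and 229.9 CPM under DMSO. SMC2 in WT cells stood at 69.5, 67.8, 90.5 and 87.0 CPM under 5-FU, against 148, 124, 122 and 178 CPM under DMSO. The 4 WT 5-FU libraries were again the lowest of all 16, with log2 fold changes of -0.28 ± 0.16 in W329G cells and -0.87 ± 0.16 in WT cells (adjusted p = 0.473 and 0.00271). TOP2A, topoisomerase II alpha, which untangles sister chromatids, had 595, 600.2, 578 and 561 CPM in W329G cells under 5-FU, against 652, 662, 872 and 927 CPM under DMSO. TOP2A in WT cells stood at 454, 407, 626 and 434 CPM under 5-FU, against 531, 567, 721 and 779 CPM under DMSO. The W329G treatments of TOP2A were apart, yet neither log2 fold change passed without the block (-0.39 ± 0.13 in W329G cells and -0.43 ± 0.13 in WT cells). SMC4, the other ATPase arm, had log2 fold changes of -0.45 ± 0.21 in W329G cells and -0.78 ± 0.21 in WT cells.

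FOXM1 and MKI67, the transcription factor of the late cell cycle and the Ki-67 antigen that coats mitotic chromosomes, passed in neither genotype without the block, and both passed with it in WT cells. FOXM1 had 314, 175, 323 and 436 CPM in W329G cells under 5-FU, against 274, 197, 296 and 336 CPM under DMSO. FOXM1 in WT cells stood at 128, 96.1, 201 and 206 CPM under 5-FU, against 190.4, 146, 277 and 301 CPM under DMSO. FOXM1 was higher under 5-FU in 3 of 4 W329G pairs and lower in 4 of 4 WT pairs, with log2 fold changes of 0.15 ± 0.18 in W329G cells and -0.54 ± 0.18 in WT cells (adjusted p = 0.785 and 0.0799, 0.387 and 0.000955 with the block). MKI67 had 446, 225, 391 and 623 CPM in W329G cells under 5-FU, against 313, 232, 474 and 844 CPM under DMSO. MKI67 in WT cells stood at 153, 113, 334 and 345 CPM under 5-FU, against 241, 201, 547 and 544 CPM under DMSO. MKI67 was lower in all 4 WT pairs and in 3 of 4 W329G pairs, and W329G replicate 1 was the exception, with a log2 change of 0.51. FOXM1 shares part of its span with RHNO1, which had 34.9% of its counts.

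**Figure D4:**
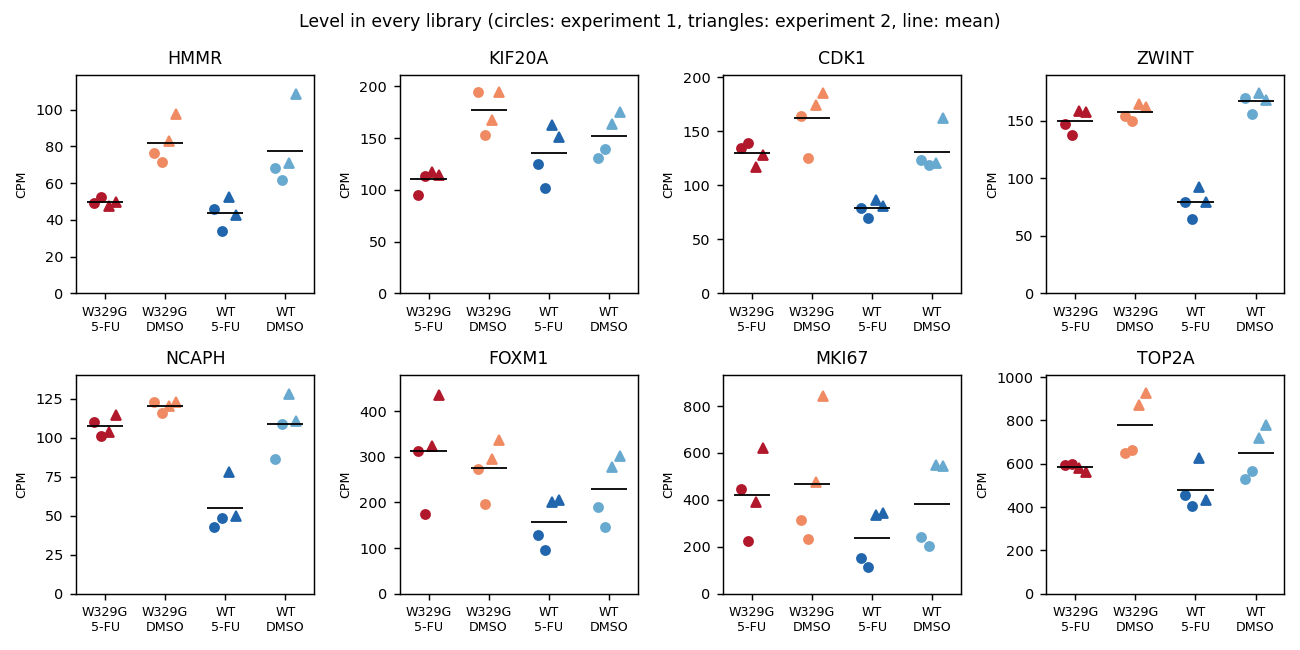
CPM (y axis) of 8 of the genes in every library by group (x axis), circles for experiment 1, triangles for experiment 2 and a line at the group mean. For ZWINT, CDK1 and NCAPH the 4 WT 5-FU libraries lie below all others, while for HMMR and KIF20A the W329G 5-FU libraries lie below all W329G DMSO libraries.

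The difference between the responses, W329G minus WT, was then tested. A positive value means a smaller decrease, or an increase, in W329G cells. It was positive for 36 of the 53 genes and negative for 17, with a median of 0.21, against 0.01 over all genes tested. ZWINT alone passed, with a difference of 1.01 ± 0.13 (adjusted p = 0.00146, edgeR), where 0.694% of all genes tested were called higher and 0.511% lower. DESeq2 called 3 of the 53 higher, where it called 1.62% of all genes higher. ZWINT also passed without any 1 of the 8 pairs. At an unadjusted p under 0.05, 14 of the 53 passed, where 9.45% of all genes passed. The median difference was 0.31 within experiment 1 and 0.07 within experiment 2, with no gene called by edgeR in either and 9 and 3 of the 53 at an unadjusted p under 0.05 (5.13% and 4% of all genes). With the replicate block 8 genes passed, all higher, where 3.6% of all genes were called higher: ZWINT, AURKB, INCENP, KIF15, KIF22, NCAPH, SMC2 and FOXM1. Their differences with the block ran from 0.48 ± 0.11 for KIF22 to 1.02 ± 0.12 for ZWINT, with 0.84 ± 0.13 for NCAPH. For ZWINT the 4 W329G pairs changed by -0.06, -0.13, -0.05 and -0.04 and the 4 WT pairs by -1.10, -1.26, -0.92 and -1.07 on the log2 scale. For 14 genes every W329G pair lay above every WT pair, as did 7.11% of all genes tested. For HMMR the difference was 0.10 ± 0.21 (adjusted p = 0.989), so a difference between the genotypes was not detected. By role the median difference was largest for FOXM1 and MKI67 (0.69) and for chromosome condensation (0.37), and lowest for CDK1 with its phosphatases and binding protein (-0.17).

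The genes were also described by promoter. The 36 genes with TTTGAA had a median log2 fold change of -0.41 in W329G cells and -0.65 in WT cells. The 10 genes with a window but no TTTGAA had -0.37 and -0.45, and among them BUB1, CDC25B and KIF22 have the variant TTCGAA. The 7 genes without a window had -0.36 and -0.53. The median difference between responses was 0.27 in the 36 genes with TTTGAA, -0.09 in the 10 without and 0.21 in the 7 genes without a window. These values were not tested, and the ranges overlap: in WT cells they run from -1.22 to -0.09 with TTTGAA and from -0.99 to -0.09 without. ZWINT and HMMR have TTTGAA in the windows shown above, and KIF20A does not have it in its window. Of the forms of the CHR only TTTGAA and TTCGAA were searched, so a promoter without them may still hold the element.

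Genotypes were compared within each treatment on counts summed per labelled line. Under DMSO the log2 difference of W329G over WT was positive for 44 of the 53 genes, with a median of 0.22, against 0.00 over the 17478 genes tested. NCAPD2 alone passed, at a log2 fold change of 0.55 ± 0.10 (adjusted p = 0.0396, edgeR), where 0.452% of all genes were called higher and 0.973% lower. DESeq2 called 5 of the 53 higher, where it called 2.82% of all genes higher. NCAPD2 was also the only 1 of the 53 with every W329G DMSO library above every WT DMSO library (1.59% of all genes tested). Under 5-FU 43 were positive, with a median of 0.34, against -0.01 over all genes, and 20 were higher in W329G cells and none lower, where 7.27% of all genes were called higher and 7.11% lower. DESeq2 called 23 higher, where it called 9.54% of all genes higher, and KIF20A lower (adjusted p = 0.0194). The 20 were CDK1, AURKB, BIRC5, BUB1B, MAD2L1, ESPL1, KIF11, KIF15, KIF22, KIF23, NDC80, SPC25, ZWINT, NUSAP1, NCAPH, NCAPD2, NCAPG, SMC2, FOXM1 and MKI67. Their differences ran from 0.40 ± 0.11 for BIRC5 to 1.05 ± 0.18 for SPC25, with 0.91 ± 0.11 for ZWINT, 0.95 ± 0.11 for FOXM1 and 0.69 ± 0.12 for CDK1. By role, 4 of the 6 condensation genes (all of them condensin subunits) and 4 of the 10 kinesins were called, and none of the 4 cytokinesis genes. Every W329G 5-FU library lay above every WT 5-FU library for 17 of the 53 genes (6.46% of all genes tested). The most negative log2 differences were those of CDC25B (-0.38 ± 0.15), KIF20A (-0.36 ± 0.10, adjusted p = 0.0515) and CKS2 (-0.31 ± 0.18), none of them called here.

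These calls rest on the cell numbers as labelled. The difference between the lines of a genotype correlated negatively between the experiments over 11341 genes, with r of -0.731 under 5-FU and -0.646 under DMSO in W329G cells, and of -0.42 under 5-FU and -0.239 under DMSO in WT cells, so that sums by label may mix the lines. With the cell numbers exchanged in experiment 2 before summing, ZWINT alone of the 53 genes was called under 5-FU and none under DMSO (23 and 2 at an unadjusted p under 0.05, as were 16.1% and 7.78% of all genes), where 1.27% and 0.0115% of all genes were called in either direction, while the medians were 0.33 and 0.19. With single libraries as replicates, 22 were called under 5-FU and none under DMSO, where 12.9% and 0.931% of all genes were called in either direction. Under 5-FU, 4 were called without W329G cells 1 (1.84% of all genes), 0 without W329G cells 2 (0.998%), 26 without WT cells 1 (13.9%) and 16 without WT cells 2 (16.5%), of which KIF20A was lower. Under DMSO 11 were called without WT cells 2 (12.8% of all genes) and 0 without any other line (0.00557% to 0.768%). Within experiment 1 the median was 0.53 under 5-FU and 0.27 under DMSO, with 7 and 0 of the 53 called (2.63% and 0% of all genes). Within experiment 2 it was 0.22 and 0.16, with none called (15 and 1 at an unadjusted p under 0.05, as were 12.2% and 8.27% of all genes). The fits without 1 line take the lone sum to vary like the others.

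**Figure D5:**
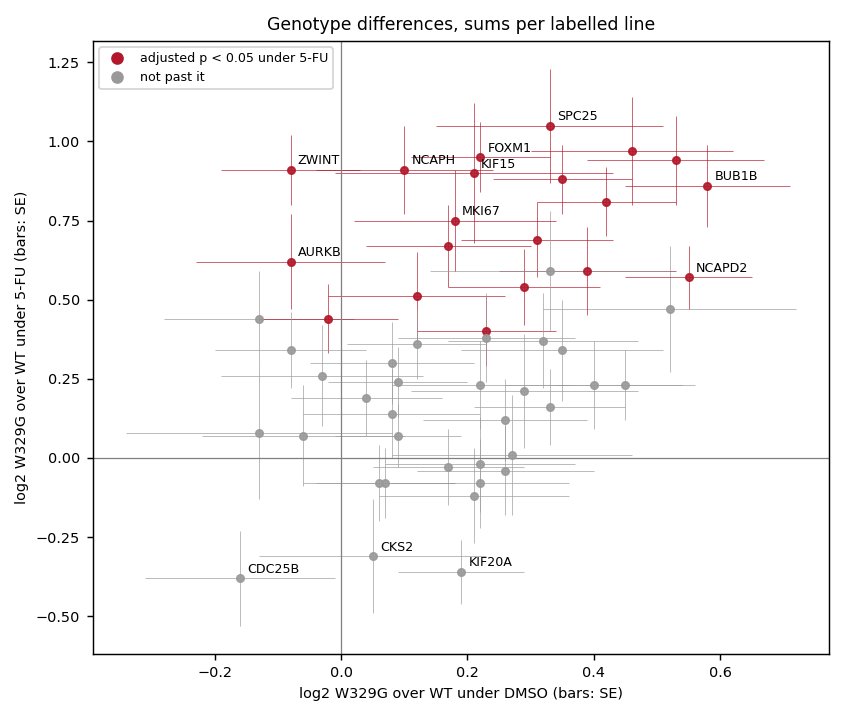
Log2 difference of W329G over WT of the 53 genes under 5-FU (y axis) against that under DMSO (x axis), with standard errors as bars and red for the 20 genes past an adjusted p of 0.05 under 5-FU. Both axes use sums per labelled line. ZWINT and AURKB lie near 0 under DMSO and well above 0 under 5-FU, whereas NCAPD2 is high on both axes.

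Other genes of the same pathway were counted in lists. Of 60 further G2 and mitosis genes 1 fell in W329G cells and 29 in WT cells, where 0.59% and 5.22% of all genes tested were called lower. The median log2 fold changes of the 60 were -0.21 and -0.53. Pairing by line and experiment as a block raised these counts to 15 lower and 1 higher (KIF18B) in W329G cells and 47 lower in WT cells. Over all genes tested the block called 5.79% and 13.1% lower, and 844 of 16430 higher in W329G cells. The gene called in W329G cells without the block was KPNA2, an importin, at a log2 fold change of -0.61 ± 0.13 (adjusted p = 0.0384). The difference of responses was called for 8 of the 60, all higher: CDCA5, CENPM, DSN1, FBXO5, HASPIN, NCAPD3, SKA3 and SPC24. The block called 18, all higher, where 0.694% of all genes were called higher without the block and 3.6% with it. SPC24, the partner of SPC25 in the NDC80 complex, had log2 fold changes of -0.05 ± 0.13 in W329G cells and -1.35 ± 0.13 in WT cells, the most negative WT response of the 60, and a difference of 1.30 ± 0.18 (adjusted p = 0.00213, edgeR). PKMYT1, which inhibits CDK1, and LMNB1, a nuclear lamin, followed in WT cells at log2 fold changes of -1.20 ± 0.24 and -1.06 ± 0.14. Between genotypes 28 of the 60 were higher in W329G cells under 5-FU and 1 under DMSO, where 7.27% and 0.452% of all genes were called higher.

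Of 12 genes of the MuvB, B-Myb and DREAM complexes none was called in W329G cells (median -0.04) and 5 fell in WT cells (median -0.42): RBL1, MYBL2, LIN54, LIN52 and TFDP1. The block called 1 lower in W329G cells, RBL2 (block adjusted p = 0.0231), 7 lower in WT cells and 4 higher in the difference. RBL1 (p107) had log2 fold changes of -0.19 ± 0.13 in W329G cells and -1.08 ± 0.13 in WT cells, with a called difference of 0.90 ± 0.18 (adjusted p = 0.0189). MYBL2 (B-Myb) had log2 fold changes of -1.07 ± 0.19 in WT cells and LIN54, the subunit that contacts the CHR, -0.77 ± 0.15. RBL2 (p130), the pocket protein most abundant in resting cells, had log2 fold changes of -0.34 ± 0.09 in W329G cells and -0.04 ± 0.09 in WT cells. Of 33 DNA replication genes none was called in W329G cells (median -0.08) and 32 fell in WT cells (median -1.12), while the difference was called higher for 20 (median 1.03). Under the block 4 fell in W329G cells (MCM6, PCNA, POLE2 and PRIM2) and 33 in WT cells, and the difference was called for 28. The median W329G response was more negative in the 53 G2 and mitosis genes than in the replication genes (-0.41 against -0.08), and the median WT response was less negative (-0.58 against -1.12), a description of medians that was not tested.

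For orientation, CDKN1A averaged 155 ± 66.8 CPM in W329G cells under 5-FU, against 94.0 ± 33.8 CPM under DMSO, and 679 ± 336 CPM in WT cells under 5-FU, against 118 ± 37.7 CPM under DMSO (SD, n = 4). MDM2 averaged 75.2 ± 19.4 CPM in W329G cells under 5-FU, against 72.8 ± 31.8 CPM under DMSO, and 229 ± 42.5 CPM in WT cells under 5-FU, against 60.9 ± 18.4 CPM under DMSO. Neither was called in W329G cells without the block (log2 fold changes of 0.70 ± 0.16, adjusted p = 0.0607, and 0.10 ± 0.19, adjusted p = 0.882), and both rose in WT cells (log2 fold changes of 2.42 ± 0.17 and 1.95 ± 0.19). With the block CDKN1A rose in W329G cells as well (adjusted p = 0.00531), and MDM2 was not called there (adjusted p = 0.626). Gene counts do not show a point mutation, so MDM2 levels do not check the genotype labels.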

How the data were processed

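TruSeq libraries were prepared from poly-A RNA, per the labels' protocols. Raw counts per gene were deposited by the authors as 1 table per library, with Ensembl genes and coordinates in experiment 1 and gene symbols in experiment 2, per the file headers. Not given in the sources used here are the aligner, the counter, its strand setting and the annotation. The build hg19 is named per the submitters' processing notes, while the experiment 1 coordinates are those of GRCh38: 96.3% of 56898 genes had the same span in GENCODE 29. All 26 counts of 7 or more digits in experiment 2 end in 0 and look rounded.

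The tables were joined by symbol, 28443 genes directly and 242 through RefSeq synonyms, with 4 ambiguous symbols left out. The joined genes held 97.91% to 98.89% of the counts. Libraries of 1 group and experiment were not copies of each other: chi-square divided by its degrees of freedom lay between 60.0 and 182.1. Whether the experiments used separate cultures is not stated, and p-values cover only the variation among these samples, which may be technical. The lowest count among the 53 genes was 317 reads.

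Counts were tested with edgeR 4.0.16 in R 4.3.3 (quasi-likelihood F test, TMM, filterByExpr by group, Benjamini-Hochberg adjustment over all genes tested, threshold 0.05). Responses and their difference were fitted on 16 libraries with a term for experiment, and genotypes on 8 sums of counts per labelled line. Each standard error is the size of the log2 fold change divided by the square root of F. CPM use TMM-scaled library sizes, and changes per pair are of log2 CPM with a prior count of 2. The fit was also run on simulated data. These held no differences between lines or experiments and no pairing, so they do not show how the fit handles those.

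A replicate block paired 5-FU and DMSO of the same line and experiment. Cell numbers name lines, and the difference between lines correlated between the treatments of an experiment (r of 0.814 and 0.779 in W329G cells and 0.78 and 0.685 in WT cells, across 11341 genes of at least 5 CPM). Alternatives were DESeq2 1.42.0, its size factors, no filter, no mitochondrially encoded genes, the block, each experiment alone, single libraries, exchanged cell numbers and leaving out each pair or line. Between genotypes, a term for cell number shared by both genotypes took the place of the block.

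The genes and lists were chosen with earlier results of these data known. Values in every library are given for CDK1, FOXM1, MKI67, the first listed gene of each role, those called in W329G cells, in the difference or between genotypes, and the 5 largest and 3 smallest WT changes. Genes with overlapping neighbours are uncertain where strand was not used. Promoters are from RefSeq. For HMMR, KIF20A, CDK1 and ZWINT the window with most TTTGAA matches is printed.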

Additional observations from a re-analysis of the deposited data

Results flagged for a closer look

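In 4 of the 116 groups of 4 libraries checked for the genes with values in every library, 1 library stood far from the other 3. Chance alone flags about 1 in 20 such groups. CDK1 was high in WT DMSO replicate 4, at 162 CPM, and NDC80 was high in the same library, at 154 CPM. MAD2L1 was low in WT DMSO replicate 3, at 70.3 CPM. KIF20A was low in W329G 5-FU replicate 1, at 94.8 CPM.

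For ZWINT the 5-FU responses of the genotypes differed by 1.01 on the log2 scale, W329G minus WT, in a test of the difference itself (adjusted p = 0.00146, edgeR).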

How the results depend on the processing

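None of the genes called in a comparison changed sign under its alternatives. With the replicate block 30 of the 53 genes were called in the W329G response in place of 2, 44 in the WT response in place of 27 and 8 in the difference in place of 1. Between genotypes a term for cell number, shared by both genotypes, took the place of the block. With this term all 20 genes called under 5-FU stayed called, as did NCAPD2 under DMSO. CDC25B and KIF20A were called lower under 5-FU, at log2 differences of -0.39 ± 0.10 and -0.36 ± 0.10. The labels do not say that lines of the same number are matched across genotypes. The DESeq2 test called 9 in the W329G response (2% of all genes lower) and 3 in the difference (1.62% of all genes higher). It called 5 between genotypes under DMSO in place of 1 (2.82% of all genes higher). Without the filter on low counts NCAPD2 stayed called under DMSO, and the number called there also moved by more than 1.5 times. Where no share over all genes is given here or above, a count cannot be set against the background. Experiment 1 alone gave 0 (W329G response), 3 (WT response), 0 (difference), 7 (genotypes under 5-FU) and 0 (under DMSO), and experiment 2 alone gave 0 for each, with fewer libraries in each fit. Between genotypes, single libraries gave 0 under DMSO, and exchanged cell numbers gave 1 under 5-FU in place of 20 and 0 under DMSO. Because the lines' differences correlated negatively between experiments, the exchange shows what crossed numbers would give. Leaving out 1 pair, in the fit without the block, gave 0 calls each time in the W329G response, 14 to 29 in the WT response and 1 to 2 in the difference (2 without WT replicate 3). Leaving out 1 line gave 0 to 26 calls between genotypes under 5-FU and 0 to 11 under DMSO. Where a count moved by more than 1.5 times, the cause was not tested. DESeq2 size factors and leaving out mitochondrially encoded genes kept all counts within 1.5 times, and the mean changes over pairs stayed between -0.433 and -0.339 in W329G cells and between -0.673 and -0.536 in WT cells. Each of these genes had at least 317 reads in every library, and the effect of depth on the calls was not tested.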
